A study of Mus musculus with 150 samples.

Results

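Club-dominant cells were the single lung cells, captured on Fluidigm C1 microfluidic chips, in which the transcript of Scgb1a1, the secretoglobin that marks airway club cells, exceeded that of Sftpc, the surfactant protein C transcript of alveolar type 2 cells, while Sftpc stayed below 10000 TPM (transcripts scaled to a fixed total per cell). The rule also required at least 1000 detected genes, a gene being detected at a TPM of at least 1, and left out control wells and wells with a debris or valve remark. It kept 25 of 61 usable cells from the chip labelled p53 KO and 39 of 66 from the wild-type (WT) chip, 64 of 127 cells in all. The rule used Scgb1a1, Sftpc and the number of detected genes, so values of these are descriptions and support nothing.

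The genotype label of the first chip was p53-/- and that of the second wild type, and both were of mouse lung. The labels' protocols describe mice with a tamoxifen-inducible Cre recombinase driven from Scgb1a1 and a fluorescent reporter, crossed to floxed, null or extra-copy alleles of p53, with tamoxifen at 250 mg/kg for RNA sequencing of either genotype. Which allele the labelled-KO chip carried was not clear from the labels. The protocols also state that chips captured cell-cycle fractions, without saying which fraction each chip held, and describe a culture step without saying whether these cells passed through it. For comparison there were 3 bulk libraries labelled p53 knockout (replicates 7, 8 and 10) and 3 WT bulk libraries (replicates 1, 5 and 6). These came from sorted Scgb1a1-lineage cells of mice aged 8 to 12 weeks, with day 30 in the titles and 70 days after tamoxifen in the protocol.

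The design had 1 chip per genotype, and the labels name no animal. Cells of 1 chip are not replicates of a genotype, so no test between chips was made, and chip, capture, library preparation and genotype cannot be told apart. Intervals on shares of cells are exact binomial at 95%, and those on differences of shares are Newcombe intervals; both cover counting error only. Throughout, a difference is the mean log2(TPM + 1) of labelled-KO cells minus that of WT cells, and a gene is called higher or lower by size where the difference is at least 2 and at least 30% of cells on the higher chip detected the gene.

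Club cells are dome-shaped secretory cells of the small airways. They release secretoglobins, antimicrobial lectins and lipid-binding proteins into the airway lining fluid, break down inhaled compounds with cytochromes and aldehyde dehydrogenases, and act as progenitors that renew themselves and give rise to ciliated and goblet cells. p53, encoded by Trp53, is a transcription factor that halts the cell cycle after stress, chiefly by switching on Cdkn1a, which encodes the cyclin-dependent kinase inhibitor p21.

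Club cell markers were abundant in the members of both chips. Scgb1a1 ranged from 11170 TPM through a median of 407527 to 605050 TPM in labelled-KO cells, and from 8035 through 408869 to 591276 TPM in WT cells. Cyp2f2, the club cell cytochrome P450 that activates naphthalene, was detected in all 25 labelled-KO cells at a median of 11980 TPM and in all 39 WT cells at a median of 13404 TPM. Its ranges, 932 to 28256 TPM and 525 to 34849 TPM, overlapped almost fully, and its difference was 0.23. Of 7 basal cell markers 6, among them Trp63, Krt5 and Krt14, were below a TPM of 1 in every cell of both chips. The other, Aqp3, was detected in 48% of labelled-KO and 17.9% of WT cells. All 8 neuroendocrine markers, among them Calca and Chga, were below a TPM of 1 in every cell.

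A few members stood apart from the rest. One labelled-KO cell carried transcripts of leukocytes, with a summed 21713 TPM over 15 leukocyte markers, 10 of them detected, against at most 157 TPM in any other club-dominant cell. Its C1qb, a complement subunit of macrophages, was at 9080 TPM, and it had the lowest Scgb1a1 (11170 TPM) and the fewest detected genes (2316) of the labelled-KO cells. Without it 225 genes were higher by size and 6 lower, against 213 and 6 with it. A labelled-KO and a WT cell carried 22 and 15 of 26 ciliated cell markers, against at most 3 and 2 in the other cells of their chips, and without both 227 genes were higher and 5 lower. A further labelled-KO cell carried 27 of 28 G2/M genes, and without it 192 were higher and 6 lower. The labels' protocols name an inspection of wells for doublets and debris, the titles still mark debris or valve wells, which were left out here, and no doublet caller was run.

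Just inside the rule, the highest Sftpc was 927 TPM in a labelled-KO cell and 7553 TPM in a WT cell. Just outside it, the lowest Sftpc among cells with more Scgb1a1 than Sftpc was 14290 TPM on the labelled-KO chip and 21798 TPM on the WT chip. Club-dominant cells made up 40.98% of labelled-KO cells (28.6% to 54.3%) and 59.1% of WT cells (46.3% to 71.05%), a difference of -18.1 percentage points (-34.0 to -0.739). Cells with Scgb1a1 above Sftpc but Sftpc of 10000 TPM or more, called dual cells here, numbered 21 of 61 labelled KO and 10 of 66 WT. With the Sftpc limit at 1000 TPM the difference in club-dominant share was -5.99 percentage points. The difference in shares was thus smaller with the stricter limit on that alveolar transcript.

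Labelled-KO cells held more detected genes, a measure of library complexity, than WT cells. The number of detected genes ran from 2316 through a median of 3665 to 5375 in labelled-KO cells and from 1201 through 2888 to 4231 in WT cells. The ERCC spike-ins, RNAs added in fixed amount at lysis, took a median of 5.56% of TPM in labelled-KO cells (3.50% to 24.6%) and 11.9% in WT cells (5.90% to 79.7%). Below 2000 detected genes there were 0 labelled-KO and 8 WT cells. Over the 4559 genes that at least 30% of cells on either chip detected, the median difference was 0.57, so most genes sat above 0 and single differences are read against that shift. With each cell centred on its own mean level the median was -0.06, and 75 genes were higher by size (1.65%) and 13 lower (0.285%). Among the 23 labelled-KO and 27 WT cells with 2500 to 4500 detected genes the median was 0.22, with 109 of 4937 genes higher (2.21%) and 10 lower (0.203%). Centring moves the difference of every gene by the same amount, under 2, so it could not turn the sign of a called gene. Among the cells with 2500 to 4500 detected genes all 213 higher genes had a positive difference, and the 6 lower genes a negative one. These cells are most of those used to call them.

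By share of detecting cells Trp53 went against the label, which is why the chip is called labelled KO throughout. Trp53 was detected in 8 of 25 labelled-KO cells (32%, 14.9% to 53.5%) and 3 of 39 WT cells (7.69%, 1.62% to 20.9%). Labelled-KO cells detected more genes in general, and the part of that in the Trp53 share was not tested. Trp53 TPM ran from 0 through a median of 0 to 262 in labelled-KO cells and from 0 through a median of 0 to 453 in WT cells. Most cells of both chips had no Trp53 transcript, and mean TPM was 22.7 in labelled-KO and 22.2 in WT cells. TPM is summed over the whole gene (chr11:69580359-69591873, GRCm38), so transcripts that lack deleted exons still count. In bulk, Trp53 was at 8.63, 9.98 and 7.56 FPKM (fragments scaled to transcript length and library total) in the libraries labelled knockout, against 16.6, 22.2 and 21.7 FPKM in WT. The bulk groups did not overlap, as was so for 10.2% of 11957 tested genes on the lower side and 9.04% on the higher side. Its log2 fold change was -1.12, standard error 0.149 (limma adjusted p = 0.144). Without WT replicate 1, a setting in which 407 genes passed, the limma adjusted p was 0.00992. Leaving out each other library in turn gave a limma adjusted p of 0.257 to 0.542. Nothing in the labels says that bulk libraries came from separate animals, so these p-values measure the spread between the libraries, which may be technical.

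Secreted proteins of the airway surface made up the largest differences between the chips. Of the 12 largest higher genes, 7 encode proteins that club and goblet cells secrete or process for secretion: Reg3g, Bpifa1, Bpifb1, Scgb3a1, Tff2, Ltf and Agr2. They were grouped after their values were seen. By size 213 of 4559 genes were higher (4.67%) and 6 were lower (0.132%).

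Reg3g encodes a C-type lectin that kills Gram-positive bacteria and lies at chr6:78466269-78468872 (GRCm38). It ran from 0 through a median of 11075 to 38709 TPM in labelled-KO cells and from 0 through a median of 0.20 to 25229 TPM in WT cells. Most labelled-KO cells were high and most WT cells near 0, but each chip held cells of both kinds. The means were 10.43 ± 5.66 and 4.74 ± 5.95 on the log2(TPM + 1) scale (SD over 25 labelled-KO and 39 WT cells), a difference of 5.69. Bpifa1, which encodes the surfactant-like antimicrobial protein SPLUNC1 (chr2:154142880-154149219), ran from 0.30 through 17861 to 89272 TPM in labelled-KO cells and from 0 through 2.38 to 125067 TPM in WT cells, a difference of 5.45. The highest single cell for Bpifa1 was a WT cell. Bpifb1, its neighbour in the same gene family (chr2:154190818-154220369), had medians of 9123 TPM in labelled-KO and 0.56 TPM in WT cells, a difference of 5.34.

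Scgb3a1, a secretoglobin of the larger airways at chr11:49663610-49665118, had medians of 24899 TPM in labelled-KO cells and 72.5 TPM in WT cells, with highest cells of 54837 and 71974 TPM and a difference of 4.68. Tff2, a trefoil peptide that binds mucins, had medians of 952 TPM in labelled-KO and 0 TPM in WT cells and a difference of 4.70. Ltf, the iron-binding antimicrobial lactoferrin, had medians of 1068 TPM in labelled-KO cells and 0.25 TPM in WT cells and a difference of 4.64. Agr2, the disulphide isomerase needed for mucin folding, was detected in 16 of 25 labelled-KO and 10 of 39 WT cells, with a difference of 4.01. In each of these genes the ranges of the chips overlapped from below 1 TPM upward.

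**Figure D1:**
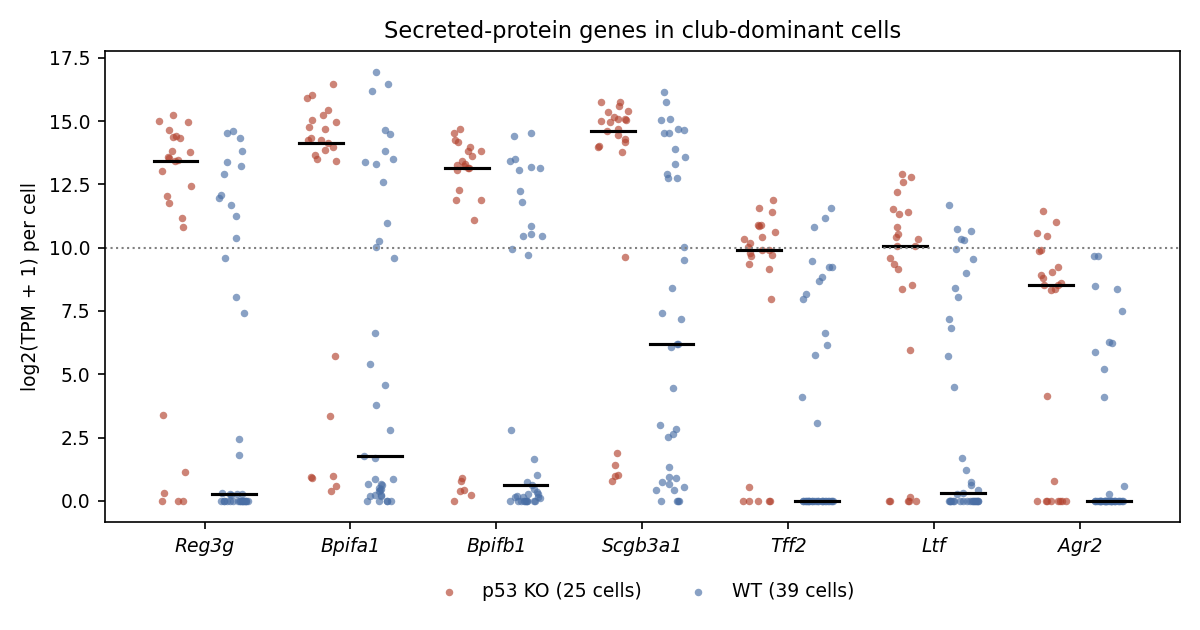
Level of the 7 secreted-protein genes in each club-dominant cell, as log2(TPM + 1), for labelled-KO cells (p53 KO, left of each pair, 25 cells) and WT cells (right, 39 cells); black bars are medians and the dotted line is 1000 TPM. Points fall into a high and a near-0 cloud on both chips, and more labelled-KO cells lie in the high one.

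To show the regulatory sequence of genes that varied together across cells, promoters of 3 of the 7 are given, from 250 bases before to 50 bases after the gene start (RefSeq, GRCm38.p6), 5′ to 3′ on the gene's strand. Capitals mark matches, on either strand, to the FOXA core TGTTTGC, the NKX2-1 core CAAGTG or the STAT core TTCNNNGAA.
Reg3g, chr6:78468825-78469124, minus strand: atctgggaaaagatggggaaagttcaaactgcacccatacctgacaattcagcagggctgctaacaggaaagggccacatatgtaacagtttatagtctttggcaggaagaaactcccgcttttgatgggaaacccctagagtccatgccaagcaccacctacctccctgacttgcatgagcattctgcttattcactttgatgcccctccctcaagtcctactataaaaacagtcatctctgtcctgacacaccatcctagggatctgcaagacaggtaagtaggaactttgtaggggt
Bpifb1, chr2:154190568-154190867, plus strand: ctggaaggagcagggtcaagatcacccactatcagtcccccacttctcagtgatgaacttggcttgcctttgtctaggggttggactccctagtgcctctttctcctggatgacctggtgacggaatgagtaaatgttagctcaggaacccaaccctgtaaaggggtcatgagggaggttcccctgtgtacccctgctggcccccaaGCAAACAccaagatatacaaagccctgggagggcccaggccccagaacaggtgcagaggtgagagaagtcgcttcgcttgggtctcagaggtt
Scgb3a1, chr11:49663345-49663644, plus strand: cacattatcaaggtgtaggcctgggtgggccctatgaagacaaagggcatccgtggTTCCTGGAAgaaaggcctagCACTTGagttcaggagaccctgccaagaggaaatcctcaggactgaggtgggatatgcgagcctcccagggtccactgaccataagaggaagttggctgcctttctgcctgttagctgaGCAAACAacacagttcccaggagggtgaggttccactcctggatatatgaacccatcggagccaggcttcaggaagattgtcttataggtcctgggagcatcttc

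Promoters of 6 of the 7 genes were in the RefSeq table. The FOXA core TGTTTGC was in 2 of 6 (Bpifb1 and Scgb3a1), against 5.07% of 32851 mouse promoters of the same length. The other FOXA core, TGTTTAC, was in 0 of 6, against 3.65%. The NKX2-1 core was in 1 of 6, against 13.6%, and the STAT core in 1 of 6, against 8.30%, both in Scgb3a1. In Scgb3a1 and Bpifb1 the FOXA match started 55 and 43 bases before the gene start, which is a match of letters and not a measured binding site.

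Most of the 7 genes were high or near 0 together, cell by cell, but cells high in some were often not high in all. Ltf reached 1000 TPM in 13 labelled-KO and 5 WT cells, Tff2 in 11 and 3, and Agr2 in 4 and 0. Of labelled-KO cells, 19 of 25 (76%, 54.9% to 90.6%) had at least 4 of the 7 genes at 1000 TPM or more, against 12 of 39 WT cells (30.8%, 17.02% to 47.6%), a difference of 45.2 percentage points (20.3 to 62.7). None of the 7 reached 1000 TPM in 6 labelled-KO and 24 WT cells, and 1 to 3 did in 0 labelled-KO and 3 WT cells. Few cells therefore lay between none and at least 4 of the 7 genes. Pairwise Pearson correlations among the 7 genes on the log2 scale, given as descriptions of cells that share a chip and their depth, had a median of 0.92 over labelled-KO cells (0.72 to 0.98) and 0.86 over WT cells (0.46 to 0.99). The mean level of the 7 had a correlation of 0.44 with the number of detected genes over labelled-KO cells and 0.27 over WT cells.

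Cells high in these genes were called secretory-high, a class defined by the values compared. Among cells with 2500 to 4500 detected genes, 18 of 23 labelled KO (78.3%) and 12 of 27 WT (44.4%) were secretory-high. The difference of 33.8 percentage points in that range was smaller than that over all cells and of the same sign. The range narrows the gap in detected genes without closing it, and the median difference of all genes there was 0.22. Without the cell with leukocyte transcripts the difference over all cells was 48.4 percentage points. Among dual cells 10 of 21 labelled KO and 3 of 10 WT were secretory-high, a difference of 17.6 percentage points (-18.3 to 45.4). Among cells with Sftpc at or above Scgb1a1 it was 0 of 15 and 0 of 17, which allows up to 21.8% and 19.5% (exact upper bounds).

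**Figure D2:**
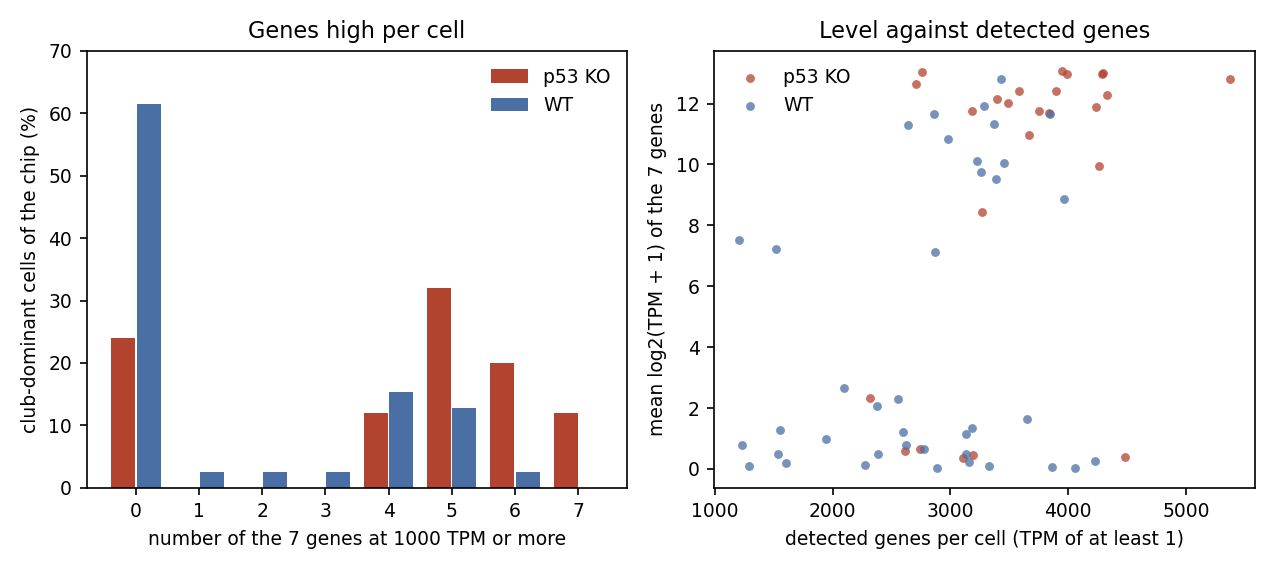
Left, share of the club-dominant cells of each chip (%) by how many of the 7 genes reached 1000 TPM, labelled KO (p53 KO) left of WT: 24% of labelled-KO and 61.5% of WT cells had 0. Right, mean log2(TPM + 1) of the 7 genes in each cell against its number of detected genes. High and near-0 cells of both chips overlap in detected genes, but near-0 cells had fewer at the median. The median was 3835 in labelled-KO cells with at least 4 of the 7 genes high and 2927 in those with 0. In WT cells these medians were 3327 and 2610.5.

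Airway surface defence proteins had 6 of 10 eligible members higher by size and 0 lower, beside 4.67% and 0.132% of all genes. Their median difference was 3.43, against 0.57 over all genes. The 6 were Bpifa1, Bpifb1, Reg3g, Ltf and Scgb3a1, all among the 7 grouped genes, and Pigr (2.23), the receptor that carries IgA to the airway surface. The 7 genes define the secretory-high class, so their differences within it are not given. Within secretory-high cells, 19 labelled KO and 12 WT, 171 of 5431 genes were higher by size (3.15%) and 32 lower (0.589%).

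Further genes followed the 7 across cells. The genes with correlation to their mean level that was highest on both chips were Muc5b, the gel-forming mucin of the airways (0.92 over 25 labelled-KO and 0.88 over 39 WT cells), Pdpn, a membrane glycoprotein of alveolar type 1 and basal cells (0.96 and 0.86), Sult1d1, a sulfotransferase (0.85 and 0.84), and the peptide transporter gene Slc15a2 (0.82 and 0.84). Of the other genes higher by size, 34 of 206 had a correlation of at least 0.5 over WT cells, against 79 of 4552 eligible genes. Pdpn had medians of 374 TPM in labelled-KO and 0 TPM in WT cells and a difference of 4.00. S100a6, a calcium-binding protein gene, and Ifitm1, an interferon-inducible membrane protein gene, both had a difference of 4.32. AW112010 and Oit1 filled the other places among the 12 largest, with differences of 3.99 and 4.06. Pdpn overlapped between genotypes in bulk, at 16.3, 11.9 and 8.80 FPKM in libraries labelled knockout and 1.90, 21.5 and 21.2 FPKM in WT.

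**Figure D3:**
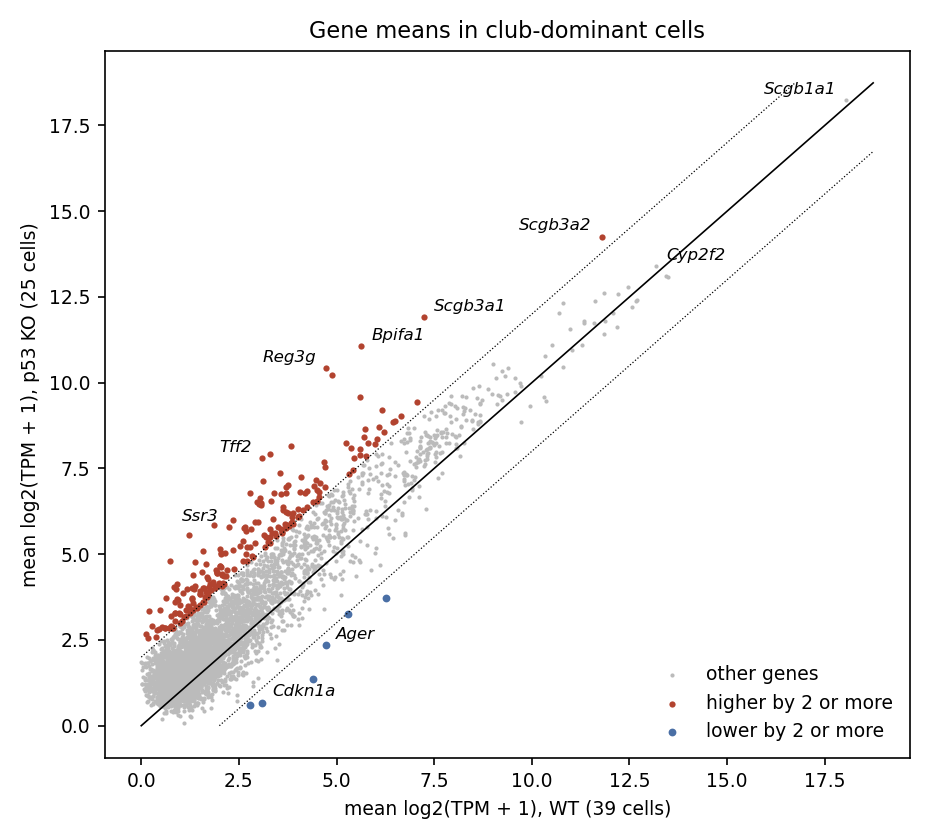
Mean log2(TPM + 1) of each of 4559 genes in labelled-KO club-dominant cells (vertical, 25 cells) against WT club-dominant cells (horizontal, 39 cells). Solid line, equal means; dotted lines, a difference of 2; red, the 213 higher genes; blue, the 6 lower genes. Most grey points lie above the solid line, as the median difference of 0.57 describes.

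Goblet cell genes, which encode mucins and their processing proteins, had 5 of 8 eligible members higher by size and 0 lower, beside 4.67% and 0.132% of all genes. Their median difference was 2.54, against 0.57 over all genes. The 5 were Muc5b (2.88), Agr2, Tff2, Muc4 and Muc20. Muc5b was detected in 19 of 25 labelled-KO cells at a median of 76.02 TPM over all of them, and in 15 of 39 WT cells at a median of 0 TPM. Among complement genes, C3 (2.09), for the central complement protein, and Clu (2.92), for a secreted chaperone, were higher by size. For Clu the direction turned by ratio of mean TPM, 885 TPM in labelled-KO and 1825 TPM in WT cells.

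Genes of protein entry into and folding in the endoplasmic reticulum (ER) were higher on the labelled-KO chip as a list, and stayed so within secretory-high cells. Of 43 eligible members 12 were higher by size and 0 lower, beside 4.67% and 0.132% of all genes. The difference was positive in 42, with a median of 1.53. The median was 0.90 with each cell centred on its own mean level, 1.07 among cells with 2500 to 4500 detected genes and 1.14 among secretory-high cells, against -0.06, 0.22 and 0.27 over all genes in those settings. Centring moves all genes alike, so the centred value repeats the first contrast. Ssr3, a subunit of the translocon-associated complex, had medians of 75.7 TPM in labelled-KO and 0.62 TPM in WT cells, was detected in 23 of 25 and 17 of 39 cells, and had a difference of 3.54 (3.77 within secretory-high cells). Selk, an ER-associated selenoprotein gene, had medians of 217 TPM and 2.50 TPM in labelled-KO and WT cells. Tram1, a translocation factor, was detected in all 25 labelled-KO and 22 of 39 WT cells. The other 9 were Sec61b, Pdia3, Pdia6, P4hb, Calr, Canx, Manf, Herpud1 and Ostc, with differences from 2.01 (P4hb) to 2.62 (Canx). In dual cells the list's median was 0.18, where that of all genes was -0.17, and in the bulk libraries 25 of 46 tested members had a positive log2 fold change, with a median of 0.01.

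Club cell markers differed from one another. Of 10 eligible, 2 were higher by size, Scgb3a2 and Chad, where 4.67% of all genes were, and the list's median difference of 0.46 was below the 0.57 of all genes. Scgb3a2, a secretoglobin of the smaller airways, ran from 740 through a median of 30826 to 62228 TPM in labelled-KO cells and from 0 through 8059 to 35088 TPM in WT cells. Its difference was 2.46 over all cells and 0.89 in secretory-high cells. Chad, which encodes the matrix protein chondroadherin, had a difference of 3.81. Of 26 eligible xenobiotic and aldehyde enzymes 5 were higher by size, again beside 4.67% of all genes: Aldh3a1 (3.44), Sult1d1 (3.14), Adh7 (2.70), Pon1 (2.48) and Gsto1 (2.38), with a list median of 0.74.

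Energy genes of the nucleus and of the mitochondrion had medians of opposite sign. Among 41 eligible nuclear genes of oxidative phosphorylation 5 were higher by size, beside 4.67% of all genes. Their median was 1.29, and among cells with 2500 to 4500 detected genes it was 0.56. Ndufb10, a complex I subunit, had medians of 179 TPM in labelled-KO and 1.74 TPM in WT cells. All 13 genes of mitochondrial DNA were eligible, 0 were called by size, 12 had a negative difference and the median was -0.37. mt-Nd5, for another complex I subunit, had medians of 774 TPM in labelled-KO cells and 1358 TPM in WT cells, a difference of -0.90. Of 40 ribosomal protein genes 0 were called and the median of 0.59 was that of all genes within 0.02. The 12 ion and fluid transport genes had a median of 1.27, and 2 were higher by size, again beside 4.67% of all genes. The 2 were Kcne3, a potassium channel subunit gene (3.42), and Fxyd3, a sodium pump regulator gene (3.57).

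**Figure D4:**
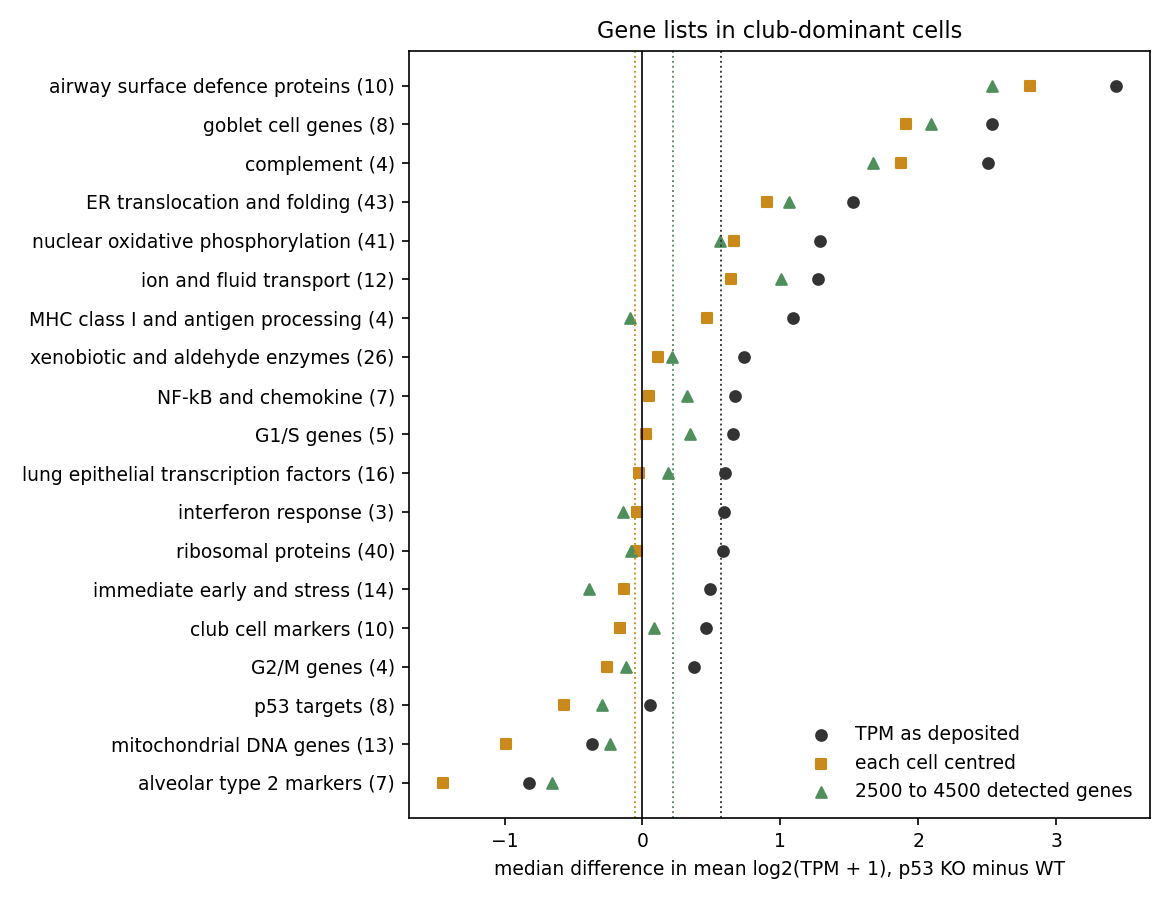
Median difference in mean log2(TPM + 1), labelled KO minus WT, of each gene list (number of eligible members in brackets) in club-dominant cells as deposited, with each cell centred, and in cells with 2500 to 4500 detected genes. Dotted vertical lines give the median of all genes in the same colour. Defence, goblet, complement and ER lists lie to the right of it in all 3 settings. So do the ion and fluid transport and nuclear oxidative phosphorylation lists and, by less, the G1/S and NF-kB lists. Centring moves all genes alike and is no separate check.

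Among lower genes, Cdkn1a is the one with a known place in the p53 pathway. It lies at chr17:29090976-29100727 (GRCm38). Cdkn1a was detected in 4 of 25 labelled-KO cells (16%, 4.54% to 36.1%) and 16 of 39 WT cells (41.03%, 25.6% to 57.9%), a difference of -25.0 percentage points (-43.3 to -1.73). Its TPM ran from 0 through a median of 0 to 208 in labelled-KO cells and from 0 through a median of 0 to 809 in WT cells. Most cells of both chips had none, and the cells that had it were lower on the labelled-KO chip. Among detecting cells the median was 8.80 TPM in labelled-KO and 255 TPM in WT cells, and 1 of 25 and 12 of 39 cells reached 100 TPM. The mean log2(TPM + 1) was 0.67 ± 1.73 in labelled-KO and 3.09 ± 3.90 in WT cells (SD over cells), a difference of -2.42.

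Cdkn1a was also lower among cells with 2500 to 4500 detected genes. There it was detected in 2 of 23 labelled-KO and 13 of 27 WT cells, a difference in mean level of -3.32. Within secretory-high cells it was detected in 3 of 19 labelled-KO and 3 of 12 WT cells, with a difference of -0.94, and among cells with 0 of the 7 genes high in 1 of 6 and 13 of 24. In dual cells 9 of 21 labelled KO and 7 of 10 WT detected it, and in cells with Sftpc at or above Scgb1a1 6 of 15 and 8 of 17. By difference of medians Cdkn1a was 0 on both chips.

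In bulk, Cdkn1a was at 19.6, 21.3 and 18.0 FPKM in the libraries labelled knockout and 37.6, 40.02 and 63.9 FPKM in WT. All 3 libraries labelled knockout were below every WT library, as was so for 10.2% of 11957 tested genes. Its log2 fold change was -1.18, standard error 0.203 (limma adjusted p = 0.203). Without WT replicate 1, a setting in which 407 genes passed, the limma adjusted p was 0.0184. Leaving out each other library in turn gave a limma adjusted p of 0.238 to 0.542. In bulk, fewer cells of a type and less RNA per cell cannot be told apart, and markers of other cell types moved with the genotype labels. Leukocyte markers were negative in 14 of 14 tested genes (median log2 fold change -0.85), 11 of them without overlap, beside that 10.2%. Their summed levels were 48.96 to 78.8 FPKM in libraries labelled knockout and 105 to 133 FPKM in WT. Alveolar type 2 markers were negative in 10 of 10 (median -1.003), 7 without overlap, with sums of 4516 to 4864 FPKM in libraries labelled knockout and 5290 to 10979 FPKM in WT. MHC class II genes were negative in 8 of 8 (median -1.06), 6 without overlap, with sums of 818 to 1179 FPKM in libraries labelled knockout and 1382 to 3399 FPKM in WT. Ciliated markers were positive in 26 of 26 (median 1.34), 6 without overlap, beside 9.04% of all tested genes on the higher side. Their sums were 565 to 1013 FPKM in libraries labelled knockout and 181 to 618 FPKM in WT. The part of these lists in the bulk values of Cdkn1a, Trp53 and Ager was not tested. Of the 36 genes of the p53 target list only 8 were eligible in club-dominant cells. By size 1 of the 8 was lower (Cdkn1a), beside 0.132% of all genes, and 0 were higher. The difference was positive in 4 and negative in 4, with a median of 0.05. The median number of the 36 genes detected per cell was 7 on both chips. Ccng1, for cyclin G1, was detected in 9 of 25 labelled-KO and 17 of 39 WT cells, a difference of -0.996. Perp, also of the list, went the other way, detected in 12 of 25 labelled-KO and 7 of 39 WT cells, a difference of 1.45. Phlda3, an inhibitor of Akt signalling, was detected in 0 of 25 labelled-KO and 4 of 39 WT cells, which allows up to 13.7% of labelled-KO cells (exact upper bound).

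**Figure D5:**
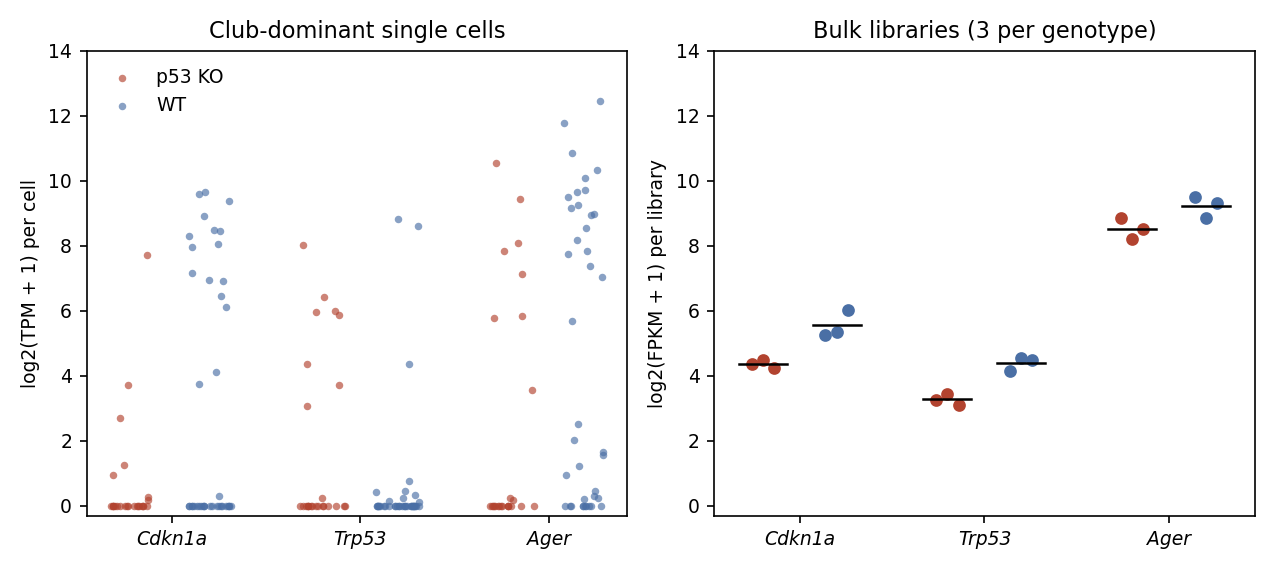
Left, log2(TPM + 1) of Cdkn1a, Trp53 and Ager in each club-dominant cell, labelled KO (p53 KO) left of WT. Right, log2(FPKM + 1) of the same genes in the 3 bulk libraries of each genotype, with black bars for means. Cdkn1a is lower in labelled-KO cells and in each bulk library labelled knockout, while Trp53 is lower in bulk and detected in more labelled-KO cells.

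Ager, the receptor gene that is a marker of alveolar type 1 cells, was lower by size. It was detected in 8 of 25 labelled-KO cells and 24 of 39 WT cells, with medians of 0 TPM and 4.68 TPM and highest cells of 1480 TPM and 5568 TPM. Its difference was -2.38 over all club-dominant cells, -2.44 with 2500 to 4500 detected genes, and -0.32 in secretory-high cells. Ager differed by -0.97 in dual cells and, with the sign turned, by 2.27 in cells with Sftpc at or above Scgb1a1. In bulk it was at 457, 297 and 362 FPKM in the libraries labelled knockout and 728, 459 and 631 FPKM in WT, a log2 fold change of -0.70 (limma adjusted p = 0.336). Alveolar type 1 markers as a list had a median difference of 0.00 over 6 eligible genes, and alveolar type 2 markers, Sftpc among them, had a median of -0.82 over 7.

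The other lower genes by size were Rps2-ps6 (-3.03) and Gm6576 (-2.19), Erdr1 (-2.05) and Sftpc, which the rule limits. Rps2-ps6 is annotated as a processed pseudogene, and it was detected in 8 of 25 labelled-KO and 31 of 39 WT cells. Rps2, the ribosomal protein gene it is named for, was detected in 25 of 25 and 37 of 39 with a difference of 1.63, and both are uncertain because near-identical copies can share reads. In dual cells 92 of 6289 genes were higher by size (1.46%) and 101 lower (1.61%), and in cells with Sftpc at or above Scgb1a1 it was 243 (5.67%) and 14 (0.327%) of 4285. Of the 213 genes higher in club-dominant cells, 136 had a positive difference in dual cells and 169 in cells with Sftpc at or above Scgb1a1. Of the 6 lower genes, 5 and 4 had a negative difference there.

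Cell cycle genes were detected in part of the cells. The counts below are not adjusted for the number of detected genes, which had a median of 3665 in labelled-KO and 2888 in WT cells. At least 5 of 29 G1/S genes were detected in 11 of 25 labelled-KO and 8 of 39 WT cells. At least 5 of 28 G2/M genes were detected in 4 of 25 labelled-KO cells and 0 of 39 WT cells, which allows up to 9.03% of WT cells (exact upper bound). Top2a, the topoisomerase of dividing cells, was detected in 4 of 25 labelled-KO and 0 of 39 WT cells. Mki67, another G2/M gene, was not more frequent on the labelled-KO chip, at 1 of 25 labelled-KO and 2 of 39 WT cells. Pcna, the sliding clamp of DNA replication, was detected in 15 of 25 and 12 of 39. Of the 4 labelled-KO cells with at least 5 G2/M genes, 1 carried 27 of 28, with Birc5 at 854 TPM and Top2a at 384 TPM. It also had the most detected genes of its chip (5375). The next had 8, 6 and 6 G2/M genes. The fraction of the cell cycle loaded on each chip was not given, so its part in these counts cannot be told apart from genotype. The part of the number of detected genes was not tested.

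Other lists stayed near the level of all genes, of which 4.67% were higher and 0.132% lower by size. Of the 16 eligible lung epithelial transcription factors 0 were called, with a median of 0.60, and of 14 immediate early and stress genes 0 were called, with a median of 0.49. Of 7 NF-kB and chemokine genes 1 was higher by size, Cxcl17 (3.03), a mucosal chemokine detected in 23 of 25 labelled-KO and 29 of 39 WT cells. MHC class I genes (4, median 1.09), MHC class II genes (2, median 0.26), interferon response genes (3, median 0.59), G1/S genes (5, median 0.65) and G2/M genes (4, median 0.37) had 0 called in either direction.

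The bulk libraries did not show the secreted-protein difference. Reg3g was at 1658, 3016 and 2745 FPKM in the libraries labelled knockout and at 215, 4140 and 3958 FPKM in WT. WT replicate 1 was the lowest library, and the other WT libraries were above each library labelled knockout. Bpifb1 was at 2295, 4777 and 2832 FPKM in libraries labelled knockout and 367, 4897 and 4085 FPKM in WT, with WT replicate 1 again lowest and the other libraries of both genotypes overlapping. Over the 7 genes limma adjusted p ran from 0.754 (Agr2) to 0.891 (Tff2), with all log2 fold changes positive. Without WT replicate 1 all 7 were negative, from -0.84 (Tff2) to -0.22 (Agr2), with limma adjusted p from 0.240 (Reg3g) to 0.854 (Agr2). Of the 208 higher genes tested in bulk, 138 had a positive log2 fold change (median 0.08), beside 2135 of 3789 eligible genes (median 0.03). Over all genes 1 of 11957 passed limma at an adjusted p under 0.05, Mir6374, which was lower (0.00836%), with 842 higher (7.04%) and 724 lower genes (6.06%) at an unadjusted p under 0.05. Without WT replicate 1, 407 passed.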

How the data were processed

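The authors deposited single-cell TPM, 1 table per chip; the submitters' processing notes name Bowtie 1.1.1, RSEM 1.2.20 and the build GRCm38. For bulk the authors deposited FPKM, and the same notes name Cufflinks, Bowtie2, TopHat and mm10. Neither unit keeps read counts, so depth is unknown and no count test was used; detected genes and the ERCC share stand in for depth. Wells with a remark (3 labelled KO, 1 WT) and cells under 1000 detected genes (3 and 6) were left out. Columns for 2 labelled-KO samples were not matched and are not analysed here. No 2 kept cells had identical values.

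Cell means used log2(TPM + 1), which understates the change of low genes; ERCC rows were not counted as genes. Genes eligible for lists, medians and counts were detected in at least 30% of the cells of either chip. Bulk values were tested as log2(FPKM + 1) with limma 3.58.1 (R 4.3.3, robust eBayes with a trend) in a two-sided test, Benjamini-Hochberg adjusted at 0.05, over genes at 1 FPKM or more in at least 3 libraries; this was tested on simulated data. The genes named were Trp53, the markers of the rule, the 12 largest higher and lower genes (30% detection), up to 3 members per list (10% detection) and, for likeness to the 7 secreted-protein genes, the highest of the lower of the correlations on both chips. Other genes named were chosen after their values were seen. The members, lists and comparisons were chosen with earlier results of these data known. Results of some genes are not reported here. Leaving out libraries and other settings were tried, as given in the closing section.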

Additional observations from a re-analysis of the deposited data

Results flagged for a closer look

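The 7 secreted-protein genes were also present in the off-chip positive control well of the labelled-KO chip, which entered no comparison. There Reg3g was at 11897 TPM, Bpifa1 at 14079 TPM, Bpifb1 at 1830 TPM, Scgb3a1 at 27431 TPM, Tff2 at 1208 TPM, Ltf at 704 TPM and Agr2 at 559 TPM, with Scgb1a1 at 491987 TPM and 7953 detected genes. In the negative control well of the same chip the 7 genes were at 0.21 TPM or less, and 2 genes were detected. The source of the RNA in the positive control was not clear from the labels.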

How the results depend on the processing

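The counts of genes by size (213 higher, 6 lower) depended on the scale. They were 796 and 12 with a pseudocount of 0.1, and 31 and 1 with a pseudocount of 10. They were 75 and 13 with each cell centred, 117 and 9 with at least 2000 detected genes, 109 and 10 with 2500 to 4500 detected genes, 368 and 63 by ratio of mean TPM, and 664 and 19 by difference of medians. Added after seeing the data, they were 82 and 3 with no upper limit on Sftpc, and 171 and 32 in secretory-high cells. Among named genes, Clu turned to -1.04 by ratio of mean TPM and Sftpc to 1.12 with no upper limit on Sftpc; the cause was not tested. The difference in secretory-high share ran from 24.3 percentage points at 10000 TPM to 48.4 without the cell with leukocyte transcripts. In bulk, 2 genes passed with a pseudocount of 0.1, 0 with a pseudocount of 10 and 3 with no filter, and leaving out each library in turn gave from 0 to 407, the highest without WT replicate 1. No paired analysis was possible because the bulk groups share no replicate number and each chip is 1 sample. The number of cells, 25 labelled KO and 39 WT on 1 chip each, limits every share.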
